A study of Petunia x hybrida with 22 samples.

Results

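These are the 332 places in the petunia genome where the corolla, the petal tissue of the flower, carried more of a transcription-linked histone methylation at 7PM than at 7AM in both replicates of one antibody. They form 2 sets, 186 regions for H3K4me3 and 146 for H3K36me3. The authors' deposited lists give, for each mark and replicate, the stretches of chromatin (islands) that differed at least 2-fold between the times. An island was called rising where its 7PM value in CPM, which is counts per 1000000 reads of the library, exceeded that at 7AM. Rising islands of the 2 replicates of a mark were merged where they shared 1 bp or more, and merged regions holding islands of both replicates were kept. For H3K4me3 this kept 186 of 12756 merged rising regions, and for H3K36me3 146 of 9755. Over the 4 marks of the series, 10307 regions were listed in one direction in both replicates. The regions were thus chosen by their own reads at the 2 times, so every level and fold of a region's own mark below is a description and carries no test.

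The chromatin came from formaldehyde-crosslinked corollas of Petunia × hybrida cultivar Mitchell, grown in a greenhouse under 14 h of light, from 6AM to 8PM, and 10 h of dark. The groups used here are corolla chromatin at 7AM, after lights-on, and at 7PM, before lights-off, each immunoprecipitated with antibodies to H3K4me3, H3K36me3, H3K27ac or H3K9ac, and each with 2 biological replicates. All groups share cultivar, tissue, light regime and crosslinking, and differ only in time and antibody. The labels do not say how many flowers or plants went into a replicate, and the lists pair no island with a gene, so the tissue was not checked against marker genes and regions are named by scaffold and position. A corolla mixes cell types, so a change in a few cells, a change in many and a change in cell composition cannot be told apart in these values. Depth was 27700344 to 51116862 reads per H3K4me3 library, 26643442 to 43918569 per H3K36me3 library and 6721831 to 15757663 per acetylation library.

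H3K4me3 is a methylation deposited by SET1- and Trithorax-type enzymes around the start of transcribed genes. H3K36me3 is laid down by enzymes that travel with elongating RNA polymerase II and covers the transcribed part of genes. Acetylation of H3K9 and H3K27 neutralises the charge of the histone tail at active promoters and enhancers and turns over faster than methylation. Mitchell petunia makes and releases its benzenoid scent in the evening and at night, which is the setting in which a morning and an evening sample of its corolla were compared.

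Rises shared by both replicates were a small part of what each list held. Among regions listed in both replicates of a mark in any direction, 186 of 1866 rose in both for H3K4me3 (9.97%), and 146 of 2567 for H3K36me3 (5.69%). Regions falling in both numbered 1658 and 2418. Of the single rising islands, 188 of 3277 in H3K4me3 replicate 1 and 188 of 9669 in replicate 2 lay in a shared region, and 146 of 4021 and 146 of 5880 in H3K36me3 replicates 1 and 3. No shared rising region of either mark overlapped a falling island of its own mark.

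The regions were short and thinly covered. The H3K4me3 regions had a median length of 1400 bp (range 200 to 7600) and the H3K36me3 regions 1000 bp (200 to 3800), and together they covered 297.4 kb and 185.8 kb. The median H3K4me3 region held 14.5 morning and 51.5 evening reads in replicate 1, against 21 and 44.5 in replicate 2. In H3K36me3 replicate 1 the medians were 24.5 and 52 reads, and in replicate 3 they were 19 and 37. At least 50 reads at 7PM in both replicates were found in 49 of the 186 H3K4me3 regions and 31 of the 146 H3K36me3 regions. Reads were not tagged as single molecules, so they are not a count of independent fragments.

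Density, the CPM per kb of island, put the rising regions low in the morning. In replicate 1 the median H3K4me3 density was 0.495 in the morning and 1.24 in the evening, and replicate 2 gave 0.662 and 1.62. Median H3K36me3 density was 0.645 and 1.48 in replicate 1, and 0.749 and 1.89 in replicate 3. As a reference, reads spread evenly over the 1170.46 Mb of scaffold up to the last listed island would give 0.854 CPM per kb. The span counts sequence to which no read can map, so this is an arithmetic mark and not a measured background. Both morning densities lay below it in 151 of 186 H3K4me3 regions and in 80 of 146 H3K36me3 regions, while both evening densities lay above it in 184 and 146.

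Regions falling in both replicates of the same mark looked different at the morning side. Their mean density over the 4 libraries had a median of 2.29 CPM per kb for H3K4me3 and 1.84 for H3K36me3, against 1.02 and 1.22 for the rising regions. None of the 1658 or 2418 falling regions lay below the even-spread mark at 7AM in both replicates. Choosing regions by direction fixes part of this, since 7AM is the higher time of falling and the lower time of rising regions. At the lower time of each class, library medians were 0.863 to 1.63 CPM per kb for falling and 0.495 to 0.749 for rising regions. Their median length was 1600 bp for H3K4me3 and 2400 bp for H3K36me3. Across the rising regions, longer regions were thinner, with a Spearman correlation of length and density of −0.59 over 186 H3K4me3 regions and −0.73 over 146 H3K36me3 regions. Across falling regions it was 0.14 and 0.27, and these coefficients describe regions that share the same 4 libraries. Density has island length as its divisor, and a short island must be dense to hold enough reads to be listed. Among thinly covered regions a negative coefficient is thus partly built in. The contrasts between rising and falling regions were not tested.

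**Figure D1:**
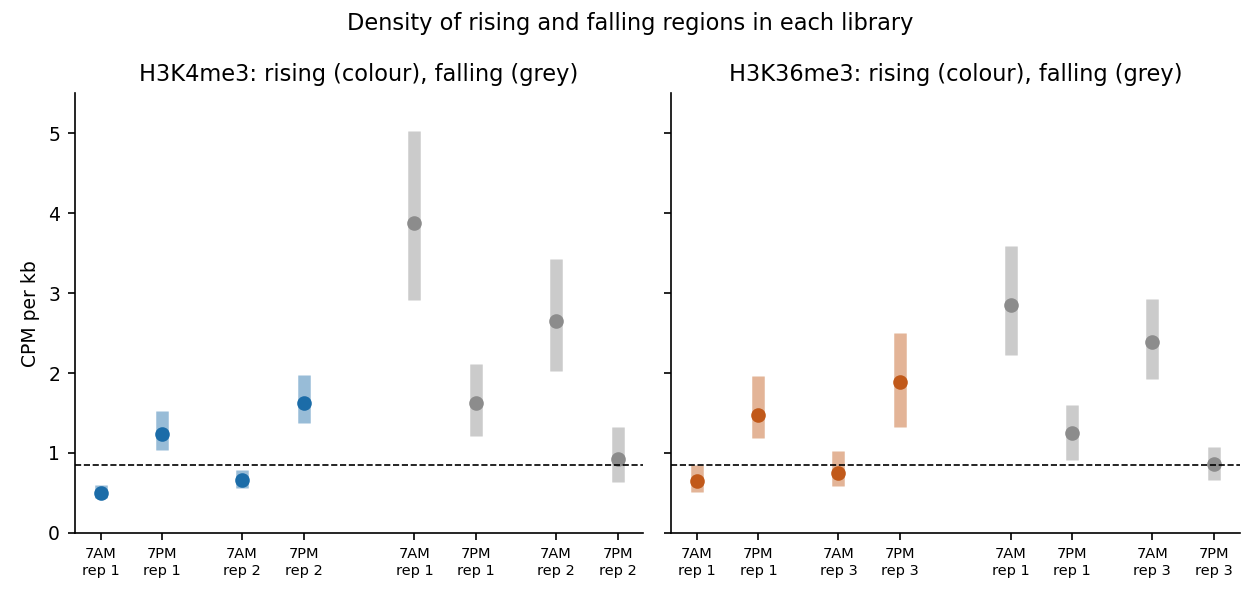
CPM per kb (vertical axis) in each of the 4 libraries of H3K4me3 (left) and H3K36me3 (right), with the median as a point and the 25th to 75th percentile as a bar; coloured are regions rising, grey those falling in both replicates, and the dashed line is 0.854, the even-spread density. Medians of rising regions start below the line at 7AM and end above it, while those of falling regions start at 2.38 or more. The choice of regions by direction fixes part of this contrast.

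The rises were of similar, modest size in both sets. A fold here is the log2 ratio of evening to morning reads, with 1 read added to every count and library totals as the scale, averaged over the 2 replicate pairs. The median was 1.22 for H3K4me3 and 1.20 for H3K36me3, just above the 2-fold limit of the lists, which is 1 on this scale. A rise of 2.5-fold or more in both pairs was seen in 16 H3K4me3 and 11 H3K36me3 regions, of 3-fold or more in 1 and 0, and of 4-fold or more in none of either set. Among falling regions, 12 of 1658 reached 4-fold in both pairs for H3K4me3. The scale matters for all of these values: with TMM factors, computed over listed regions that mostly fell, the medians became 2.49 and 2.48.

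Within each set, a larger rise in one replicate did not come with a larger rise in the other to any visible degree. The Spearman correlation of the 2 folds was 0.11 over the H3K4me3 regions and 0.056 over the H3K36me3 regions. For falling regions it was 0.20 and 0.28. The 2-fold limit cuts off the lower end of both axes, which leaves a narrow range in which to see a relation.

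**Figure D2:**
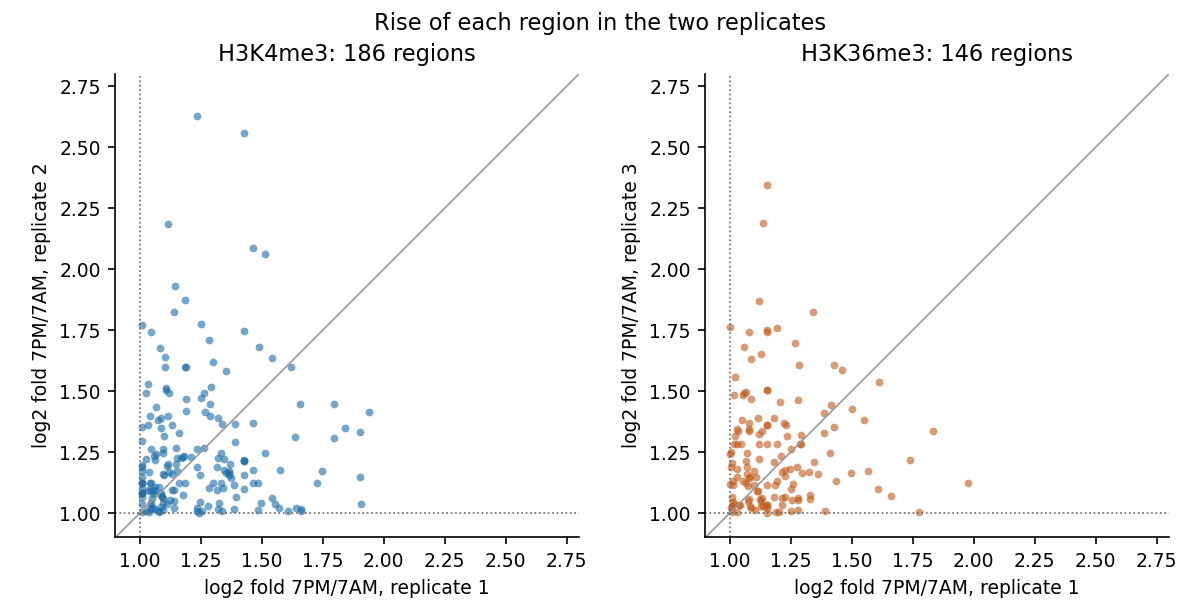
Log2 fold of 7PM over 7AM in one replicate (horizontal axis) against the other (vertical axis) for the 186 H3K4me3 (left) and 146 H3K36me3 (right) regions, each point 1 region, with dotted lines at the 2-fold limit and equality as the solid line. Most points crowd near the limit on both axes and spread along one axis or the other, with Spearman correlations of 0.11 and 0.056.

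The 5 H3K4me3 regions with the largest rise in their weaker pair were all 1000 bp or shorter. On Peaxi162Scf00435 at 901401 to 901800 replicate 1 had 6 morning and 31 evening reads and replicate 2 had 8 and 24, a log2 fold of 1.61 ± 0.014 (SD, n = 2 pairs). It was the one H3K4me3 region at 3-fold or more in both pairs, and its island had the same borders in both. On Peaxi162Scf00040 at 1974601 to 1975400 the counts were 8 and 38 in replicate 1 and 12 and 36 in replicate 2 (1.59 ± 0.066).

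The remaining 3 of these regions rose more in replicate 2. On Peaxi162Scf00014 at 607801 to 608400 the reads were 7 and 33 in replicate 1 and 5 and 22 in replicate 2 (1.79 ± 0.39), and only 200 bp were common to both islands. On Peaxi162Scf00535 at 657601 to 658600 they were 10 and 45, then 15 and 46 (1.58 ± 0.13). On Peaxi162Scf00423 at 548801 to 549400 they were 8 and 36, then 9 and 38 (1.78 ± 0.44). In each of the 5 regions both evening counts exceeded both morning counts, and no morning count was above 15. Picking the largest rises largely fixes this order, and the counts are raw, from libraries of unlike depth.

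The H3K4me3 regions with the most reads were longer, and 3 of them had densities well above the set. On Peaxi162Scf00553 at 519001 to 521400, 119 morning reads became 424 evening reads in replicate 1, and 131 became 335 in replicate 2 (1.36 ± 0.16). Its mean density was 3.05 CPM per kb. On Peaxi162Scf00153 at 1473201 to 1474600, 96 became 301 and 99 became 212 (1.14 ± 0.11), with a mean density of 3.83 CPM per kb, the highest of the set. Peaxi162Scf01060 at 128001 to 131200, with 237 and 735 reads in replicate 1 and 99 and 195 in replicate 2 (1.07 ± 0.029), had 2.74 CPM per kb. Only 8 of the 186 regions had a mean density above 2 CPM per kb, and these 3 are among them.

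The other regions with many reads were long, and their islands differed in length between replicates. On Peaxi162Scf00040 at 2798001 to 2805600, the longest region of the set, the replicate 2 island spanned all 7600 bp with 417 and 778 reads (1.82 and 3.70 CPM per kb), while the replicate 1 island was 400 bp long with 6 and 30 reads (1.30 ± 0.39). On Peaxi162Scf00147 at 872201 to 877000, a 400 bp island with 8 and 35 reads in replicate 1 lay in a 4800 bp island with 83 and 164 reads in replicate 2 (1.26 ± 0.23). Peaxi162Scf00012 at 1738601 to 1744600 was built from a 3200 bp stretch with 46 and 147 reads and 5400 bp with 88 and 175 (1.09 ± 0.020), at a mean density of 0.757 CPM per kb. In these regions the replicate with the shorter island supports a rise over that stretch alone.

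At the lower end of the set, Peaxi162Scf00168 at 426001 to 429200 had 22 and 80 reads in replicate 1 and 72 and 133 in replicate 2 (1.12 ± 0.17), where the second pair gave a fold of 2.001 in the authors' deposited list. Peaxi162Scf00103 at 1723601 to 1726000 had 16 and 51, then 49 and 91 (1.02 ± 0.024). Peaxi162Scf00018 at 984001 to 985000, with 11 and 35, then 13 and 27 reads (1.07 ± 0.081), had 200 bp in common between its islands. Just outside the rule, 6 rising islands of replicate 1 touched one of replicate 2 without sharing a base, among them 50 reads at 7PM against 16 on Peaxi162Scf00011 at 3273801 to 3274800, beside 106 against 46 at 3270601 to 3273800. Another such pair was Peaxi162Scf00032 at 3003201 to 3003800, with 11 and 36 reads, beside 3002201 to 3003200 with 16 and 31. These near misses had counts like those of the regions kept.

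The 5 H3K36me3 regions with the largest rise in their weaker pair were 400 to 1200 bp long. On Peaxi162Scf00070 at 953401 to 953800 replicate 1 went from 11 to 32 reads and replicate 3 from 12 to 30 (1.58 ± 0.053). On Peaxi162Scf00176 at 31601 to 32800 they went from 20 to 51 and from 14 to 36 (1.52 ± 0.088). Both rose in the 2 pairs by nearly the same amount.

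On Peaxi162Scf00002 at 963401 to 964400 the counts were 18 and 45 in replicate 1, then 7 and 19 over a 200 bp island in replicate 3 (1.52 ± 0.12). On Peaxi162Scf00712 at 741201 to 741600 they were 23 and 60, then 18 and 41 (1.46 ± 0.050). On Peaxi162Scf00235 at 401 to 1200, near the scaffold's start, they were 14 and 35, then 12 and 28 (1.43 ± 0.017). In each of these 5 regions both evening counts exceeded both morning counts, by 1 read in the closest case, Peaxi162Scf00002. Here too the choice of regions largely fixes the order, and the counts are raw, over islands of unlike length.

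The 5 H3K36me3 regions with the most reads held 319 to 506 reads over the 4 libraries, against 456 to 1266 in the H3K4me3 set. On Peaxi162Scf00055 at 1292801 to 1295800 there were 108 and 196 reads in replicate 1 and 76 and 126 in replicate 3 (1.01 ± 0.0013), the most reads of the set and its smallest mean fold. On Peaxi162Scf00932 at 531201 to 532600 there were 71 and 138, then 72 and 120 (1.06 ± 0.064). On Peaxi162Scf00415 at 909801 to 911600 there were 55 and 105, then 57 and 102 (1.09 ± 0.027). In these regions the islands of both replicates covered much the same stretch.

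In others one replicate supplied most of the length. On Peaxi162Scf00465 at 91601 to 94000 there were 70 and 127 reads in replicate 1, then 54 and 102 over 1400 bp in replicate 3 (log2 folds of 1.00 and 1.19 in the 2 pairs). Peaxi162Scf01233 at 14001 to 17800, the longest of the set, had 101 and 184 reads over 3800 bp in replicate 1 but 14 and 26 over 400 bp in replicate 3 (1.07 ± 0.084). Peaxi162Scf00121 at 1681201 to 1684400 had 67 and 133 over 3000 bp, then 12 and 26 over 600 bp (1.24 ± 0.15). Peaxi162Scf00846 at 123201 to 126600 joined islands of 1200 bp and 2400 bp with 200 bp in common, holding 26 and 53 reads, then 43 and 73 (1.09 ± 0.085).

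The smallest folds in a weaker pair of the H3K36me3 set were on Peaxi162Scf00218 at 2227801 to 2229200, with 19 and 35, then 13 and 38 reads (1.38 ± 0.54), and on Peaxi162Scf00295 at 764201 to 765200, with 19 and 35, then 16 and 32 (1.12 ± 0.17). In the authors' deposited list both had a fold of 2.002 in replicate 1, as did Peaxi162Scf00545 at 601401, which the order of scaffolds left out. Just outside the rule, 4 rising islands of replicate 1 touched one of replicate 3, such as Peaxi162Scf00056 at 1741001 to 1745200 with 82 and 153 reads beside 1740001 to 1741000 with 19 and 33. The other named pair was Peaxi162Scf00067 at 370601 to 371400 with 23 and 45 reads beside 371401 to 373000 with 22 and 50.

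In nearly all regions the 2 times separated across replicates. Both evening densities exceeded both morning densities in 184 of the 186 H3K4me3 regions and in 141 of the 146 H3K36me3 regions. Of all regions listed in both replicates of the mark this was 184 of 1866 (9.86%) and 141 of 2567 (5.49%). These are the same regions, since a region with a falling pair cannot meet the condition. The selection fixes most of this, since each pair already differed 2-fold. Among the exceptions, chosen here because they are so few, was H3K4me3 on Peaxi162Scf00985 at 243001 to 244600, where replicate 1 rose from 0.534 to 1.17 CPM per kb and replicate 2 from 1.92 to 4.04. The H3K36me3 region on Peaxi162Scf00050 at 28401 to 29400 rose from 1.02 to 2.08 and from 3.08 to 6.38. In these regions the morning density of one replicate lay above the evening density of the other.

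The borders of rising regions were placed less alike by the 2 replicates than those of falling regions. Both replicates gave the same borders in 18 H3K4me3 regions (9.68%) and 23 H3K36me3 regions (15.8%), against 29.9% and 27.8% of falling regions. The stretch common to both islands was a median 50% of the H3K4me3 region and 55.6% of the H3K36me3 region, against 83.3% and 87.5%. Island lengths in the 2 replicates had Spearman correlations of 0.26 and 0.45 over rising regions and 0.86 and 0.88 over falling ones. No test over regions was made of these differences.

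Rising islands that recurred had reads and folds close to those of islands listed in one replicate. In H3K4me3 replicate 1, islands within the 186 regions had medians of 51 reads at 7PM, 14 at 7AM and a log2 fold of 1.18, and those listed in that replicate alone had 50, 14 and 1.18. In H3K4me3 replicate 2 the evening medians were 44 reads for the recurring and 38 for the single islands, with lengths of 1000 and 800 bp. In H3K36me3 replicate 1 the corresponding evening medians were 52 and 52 reads. In replicate 3 they were 37 and 34 reads, with evening densities of 1.89 and 1.38 CPM per kb, the widest gap of the 4 lists. The recurring islands thus had as many or more evening reads in each list.

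Sorted by reads in their higher library, rising islands recurred at a low share throughout. In H3K4me3 replicate 1 the share overlapping a rising island of replicate 2 was 6.96% under 30 reads, 5.26% at 30 to 49, 5.89% at 50 to 99 and 7.11% at 100 or more. In H3K36me3 replicate 1 it was 1.17%, 3.96%, 3.83% and 3.05% in the same order. Falling islands of H3K36me3 replicate 1 recurred at 7.74%, 17.5%, 48.5% and 84.95%, and those of H3K4me3 replicate 1 at 5.36%, 11.8%, 34.6% and 44.1%. In replicate 3 of H3K36me3 the falling share was 30.9%, 33.0%, 36.9% and 17.7%, and in replicate 2 of H3K4me3 it was 16.3%, 12.2%, 13.3% and 26.1%, so the steady increase with reads was seen in the replicate 1 lists. The H3K36me3 replicate 3 list held 9474 falling islands of 100 reads or more, with a median length of 4600 bp. The rising islands with by far the most reads were listed in one replicate alone: 4 islands of H3K4me3 replicate 2, on Peaxi162Scf00798, Peaxi162Scf00715 and Peaxi162Scf00032, held 5798 to 35660 reads at 7PM.

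**Figure D3:**
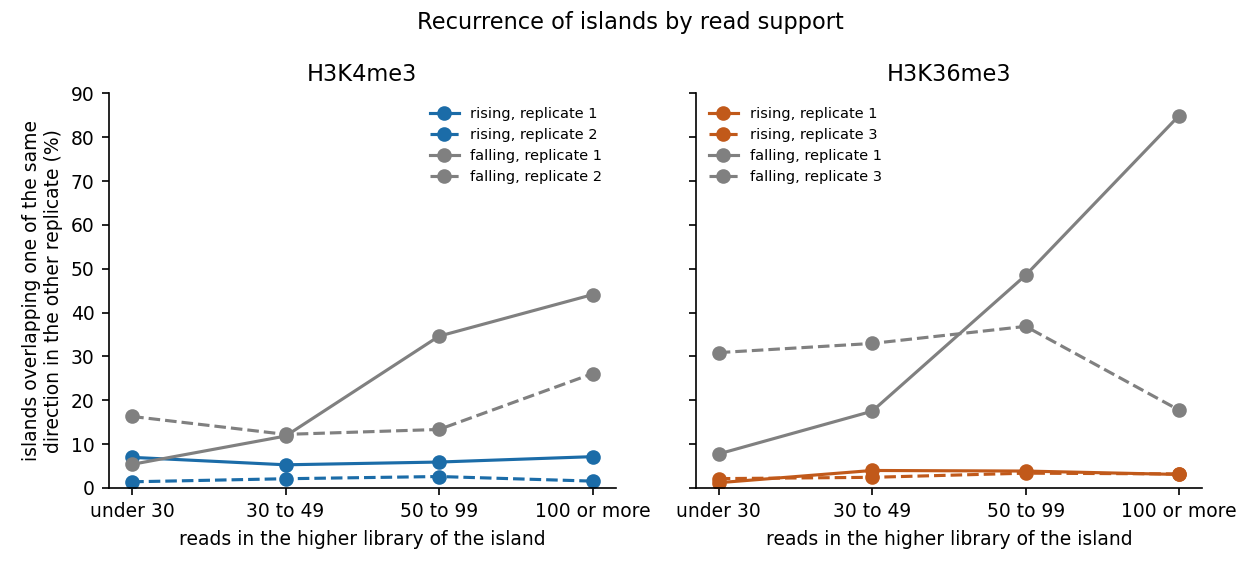
Percent of islands overlapping an island of the same direction in the other replicate (vertical axis) by the reads in the island's higher library (horizontal axis), for H3K4me3 (left) and H3K36me3 (right); coloured lines are rising and grey lines falling islands, solid for replicate 1 and dashed for the other replicate. Rising islands stay between 1.17% and 7.11% at every read level, while falling islands of replicate 1 climb to 44.1% and 84.95%.

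The regions were scattered over the assembly. The 186 H3K4me3 regions lay on 171 scaffolds, of which 158 held 1 region, and the 2 sets together touched 281 scaffolds, with 26 holding both. No region of one set overlapped the other, and the nearest pair was 80.4 kb apart. Of the H3K4me3 regions, 2 on Peaxi162Scf00377, at 623001 to 624200 and 626401 to 628600, were 2.2 kb apart, and the closest H3K36me3 pair, on Peaxi162Scf00011 at 1003401 to 1003800 and 1021401 to 1022000, was 17.6 kb apart. Where a scaffold held one, the nearest falling region of the same mark was a median 232.3 kb from an H3K4me3 region (112 regions) and 146.1 kb from an H3K36me3 region (110 regions). Falling regions lay 97.8 and 71.8 kb from the next falling region. There are fewer rising than falling regions, and scaffold ends limit all of these distances.

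Islands of the other 3 marks were not used to choose the regions, and most regions had none. A listed island of another mark, in either direction and either replicate, overlapped 25 of 186 H3K4me3 regions (13.4%) and 42 of 146 H3K36me3 regions (28.8%). Among falling regions, which were longer, the shares were 84.4% and 77.5%. Per Mb of region this was 84.1 rising against 413 falling regions for H3K4me3, and 226 against 250 for H3K36me3. A region counts once whatever its length, so values per Mb run higher for shorter regions. H3K36me3 regions had a median length of 1000 bp when rising and 2400 bp when falling. Their near-equal values per Mb thus do not mean equal overlap. The lists hold changed islands only, so a region without one may still carry the other mark at a steady level.

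Between the 2 methylations the direction was nearly always shared. Of the H3K4me3 regions, 16 overlapped a rising H3K36me3 island and 0 a falling one. Of the H3K36me3 regions, 21 overlapped a rising H3K4me3 island and 2 a falling one. In the H3K36me3 lists 39.2% of islands were higher at 7PM, and in the H3K4me3 lists 46.8%. Of the 16, 10 came from H3K36me3 replicate 1, where 52.1% of islands were higher, and 6 from replicate 3, where the share was 33.5%. Of the 21, 19 came from H3K4me3 replicate 2, whose 9669 rising islands made up 50.3% of its islands, and 2 from replicate 1, where the share was 38.9%. No region had the other methylation listed as rising in both of its replicates, which is why the 2 sets share no region. Falling regions shared direction as well. Of the falling H3K4me3 regions, 1016 overlapped a falling H3K36me3 island and 1 a rising one. Of the falling H3K36me3 regions, 1421 overlapped a falling H3K4me3 island and 5 a rising one. The shared direction of the rising regions was read from one replicate of the second mark at a time and was not tested.

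The examples with most reads show how the 2 methylations lay together. The H3K36me3 region on Peaxi162Scf00107 at 804801 to 807200 overlapped an H3K4me3 island of replicate 2 at 805001 to 809800 with 111 reads at 7AM and 223 at 7PM. On Peaxi162Scf00132 the region at 1497401 to 1500400 met one at 1497201 to 1500400 with 71 and 138. On Peaxi162Scf01385 at 53401 to 54200 the borders were identical, with 65 and 125. In the other direction, H3K36me3 rose from 51 to 96 reads in replicate 1 on Peaxi162Scf00000 at 867001 to 869800, beside the H3K4me3 region at 864801 to 867200, and the intervals had 200 bp in common. These examples were picked for their reads and not by the rule for named regions.

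Overlap with rising acetylation was counted more often in the H3K36me3 set. A rising H3K27ac or H3K9ac island overlapped 27 of the 146 H3K36me3 regions (18.5%, or 145 per Mb of region) and 5 of the 186 H3K4me3 regions (2.69%, or 16.8 per Mb). A falling one overlapped 2 and 4. Among regions falling in both replicates, a rising acetylation island overlapped 12.9% for H3K36me3 (41.8 per Mb) and 11.8% for H3K4me3 (57.9 per Mb). The rising H3K4me3 regions lay below the falling ones by share and per Mb. The rising H3K36me3 regions lay above by both, at 18.5% against 12.9% by share. Falling H3K36me3 regions were longer and each counts once, which widens the gap per Mb. Counted as islands, 30 of the 32 acetylation islands over the rising H3K36me3 regions were rising, as were 8 of the 12 over the rising H3K4me3 regions. In the acetylation lists themselves 24.6% of H3K27ac islands (19.7% in replicate 1, 29.3% in replicate 2) and 30.9% of H3K9ac islands were higher at 7PM. The H3K9ac lists differed between replicates, with 20.8% higher in replicate 1 and 54.6% in replicate 2, and 13 of the 16 rising H3K9ac islands over H3K36me3 regions came from replicate 1. With an FDR of at most 1e-05 in the acetylation lists, 10 H3K36me3 and 3 H3K4me3 regions had a rising island, and without replicate 1 of the acetylation marks 11 and 4. The difference between the sets was not tested.

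**Figure D4:**
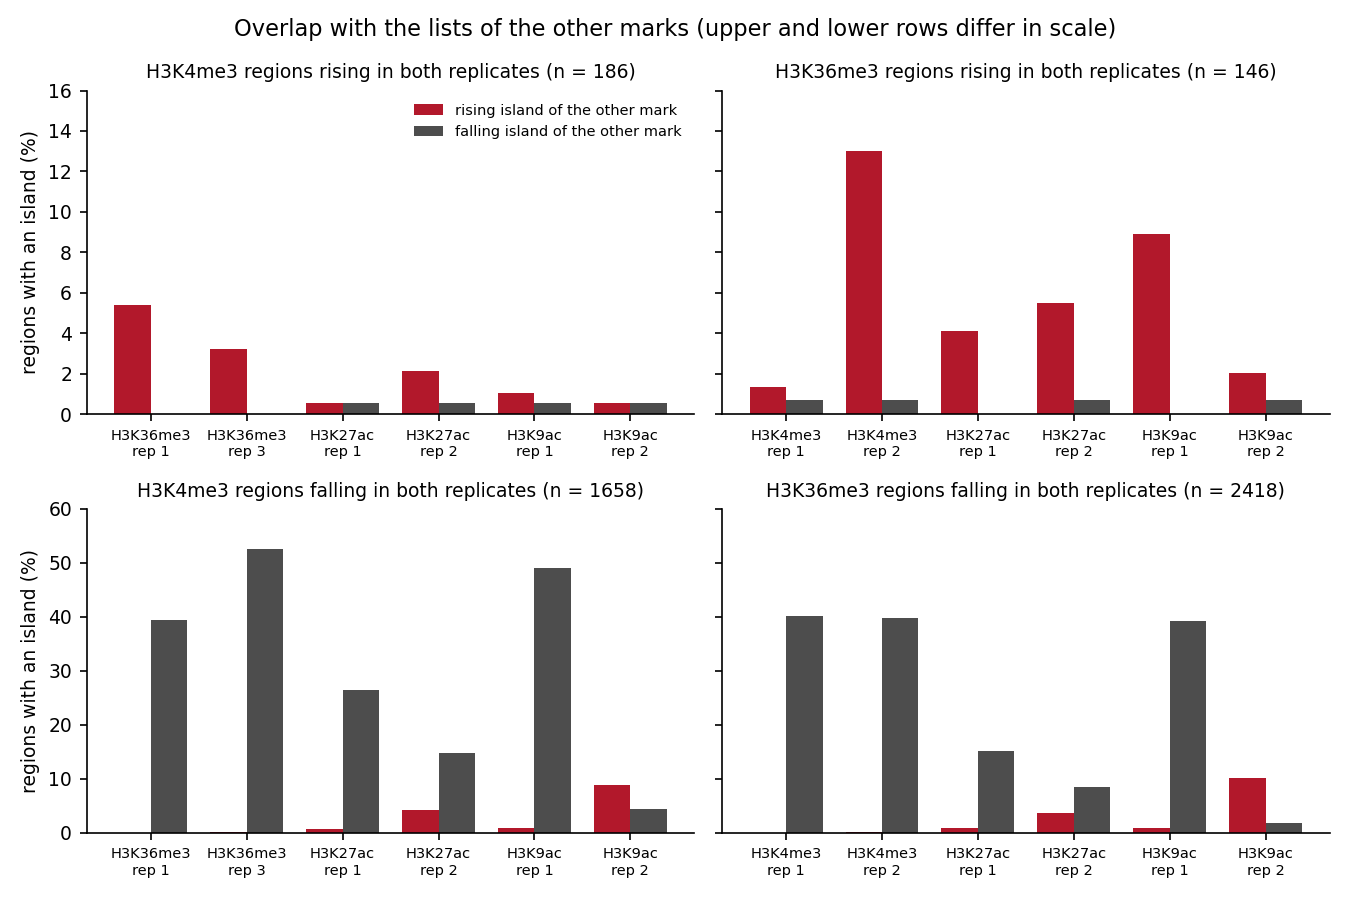
Percent of regions (vertical axis) overlapped by an island of each other mark and replicate (horizontal axis), red for islands rising and grey for islands falling at 7PM, for regions rising (upper row) and falling (lower row, wider scale) in both replicates of H3K4me3 (left) and H3K36me3 (right). For rising regions red bars exceed grey ones, except for H3K27ac replicate 1 and H3K9ac replicate 2 over H3K4me3 regions, where they are equal, and are highest for H3K4me3 replicate 2, which overlapped 19 of the 146 H3K36me3 regions, and grey bars lead for falling regions except in H3K9ac replicate 2.

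The acetylation islands over H3K36me3 regions often had exactly the borders of the methylation island. This held for 15 of 32 (46.9%), against 1 of 12 over H3K4me3 regions and 9.08% of 2027 over falling H3K36me3 regions. Short islands coincide more easily on 200 bp steps, and lengths differed, with a median of 800 bp over the rising and 2000 bp over the falling regions. Among acetylation islands of at most 800 bp, a limit chosen after seeing the lengths, the shares were 13 of 19 (68.4%) and 95 of 296 (32.1%). The limit was not put on the methylation islands. H3K36me3 regions with any acetylation island had a median length of 800 bp when rising and 2600 bp when falling. A short island cannot have the borders of a long one, so these shares are not matched for length. Identical borders came with H3K27ac on Peaxi162Scf00073 at 2381001 to 2382600, where H3K27ac of replicate 1 rose from 14 to 37 reads. They came with H3K9ac of replicate 1 on Peaxi162Scf00064 at 741801 to 742600, from 10 to 26, and on Peaxi162Scf00086 at 715001 to 715600, from 3 to 23. These are single pairs of libraries, and whether the marks of one replicate number came from the same chromatin is not stated in the labels.

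A few regions gathered more than one other mark. A rising H3K4me3 island and a rising acetylation island both overlapped 7 H3K36me3 regions, as on Peaxi162Scf00198 at 116401 to 117000, where H3K4me3 of replicate 2 went from 39 to 78 reads and H3K27ac of replicate 2 from 7 to 18. On Peaxi162Scf00522 at 641401 to 642200 H3K4me3 of replicate 2 went from 25 to 51 and H3K9ac of replicate 2 from 8 to 25. No H3K4me3 region had both kinds of rising island. Rising islands of both acetylation marks overlapped 1 region of each set, Peaxi162Scf01060 and Peaxi162Scf00712.

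Acetylation could be tested only where both replicates of the acetylation mark were listed at the region, which left 2 regions for H3K27ac and 3 for H3K9ac. The test was edgeR's quasi-likelihood test on all regions of the mark listed in both replicates, with Benjamini-Hochberg adjustment over all of them, and p-values measure the spread between 2 biological replicates. For H3K27ac it called 418 of 4371 regions higher at 7PM (9.56%) and 3638 lower (83.2%). Without adjustment 421 were higher at p under 0.05 (9.63%). Both H3K27ac regions that overlap a rising methylation region were called higher. Both had been listed as rising in both H3K27ac replicates, as had 430 H3K27ac regions in all. The lists thus largely fixed these 2 calls. Every region in the fit had already been listed at 2-fold or more in both pairs by the authors.

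The H3K4me3 region on Peaxi162Scf01060 at 128001 to 131200 was the one among the 332 where 3 marks were listed as rising in both of their replicates. H3K27ac at 129001 to 130800 had 16 morning and 102 evening reads in replicate 1 (1.41 and 7.21 CPM) and 14 and 38 in replicate 2 (2.08 and 4.78 CPM). Both evening values were above both morning values, and the log2 fold was 1.71 ± 0.81 (SD, n = 2 pairs), with an edgeR adjusted p of 0.0106. H3K9ac at 128001 to 131000 went from 27 to 135 reads and from 23 to 193, or from 2.35 to 10.4 CPM and from 1.77 to 12.2 CPM. Its log2 fold of 2.42 ± 0.45 was the larger, above that of H3K4me3 at 1.07 ± 0.029, and its groups did not overlap. Each of these acetylation pairs had been listed as rising 2-fold or more, which fixes much of the separation of the times.

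The H3K9ac rise there was not called by the main test, with an edgeR adjusted p of 0.105. That test called 0 of 2424 H3K9ac regions higher (0.0%) and 0 lower. Without adjustment 283 were higher (11.7%) and 851 lower at p under 0.05, and DESeq2 called 156 higher and 408 lower. DESeq2 gave this region an adjusted p of 0.00114 and edgeR with TMM factors 0.000194. TMM factors came from listed regions that mostly fell, and the scale moved towards rises. The fitted log2 fold here went from 2.46 to 3.40, and TMM called 345 H3K9ac regions higher and 54 lower. The p-value with TMM is thus no separate support for this rise. No H3K36me3 island was listed over this region in either direction.

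The H3K36me3 region on Peaxi162Scf00712 at 741201 to 741600 lay at one end of an H3K27ac island at 740601 to 741600, placed identically in both replicates. Replicate 1 of H3K27ac had 8 morning and 29 evening reads (0.704 and 2.05 CPM), and replicate 2 had 5 and 22 (0.744 and 2.77 CPM). The groups did not overlap, which the listing of both pairs as rising largely fixes. The log2 fold was 1.56 ± 0.19 (SD, n = 2 pairs) and the edgeR adjusted p was 0.0136. H3K9ac of replicate 1 had an island with the borders of the methylation island and rose from 5 to 18 reads. Its replicate 2 had no listed island there.

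On Peaxi162Scf00011 the H3K36me3 region at 1021401 to 1022000, with 19 and 37 reads in replicate 1 and 15 and 43 in replicate 3 (1.41 ± 0.47), carried H3K9ac at 1021601 to 1022000 in both replicates. H3K9ac had 7 and 24 reads in one replicate and 5 and 18 in the other, a log2 fold of 1.42 ± 0.056 with an edgeR adjusted p of 0.110. The neighbouring region at 1003401 to 1003800, with 18 and 39, then 13 and 25 reads of H3K36me3 (1.20 ± 0.036), had H3K9ac of replicate 1 with the same borders, at 4 and 15 reads. At the third H3K9ac place, Peaxi162Scf43236 at 14801 to 17800, the replicates went opposite ways, with 2 and 22 reads in replicate 1, 23 and 12 in replicate 2, and an edgeR adjusted p of 0.955.

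**Figure D5:**
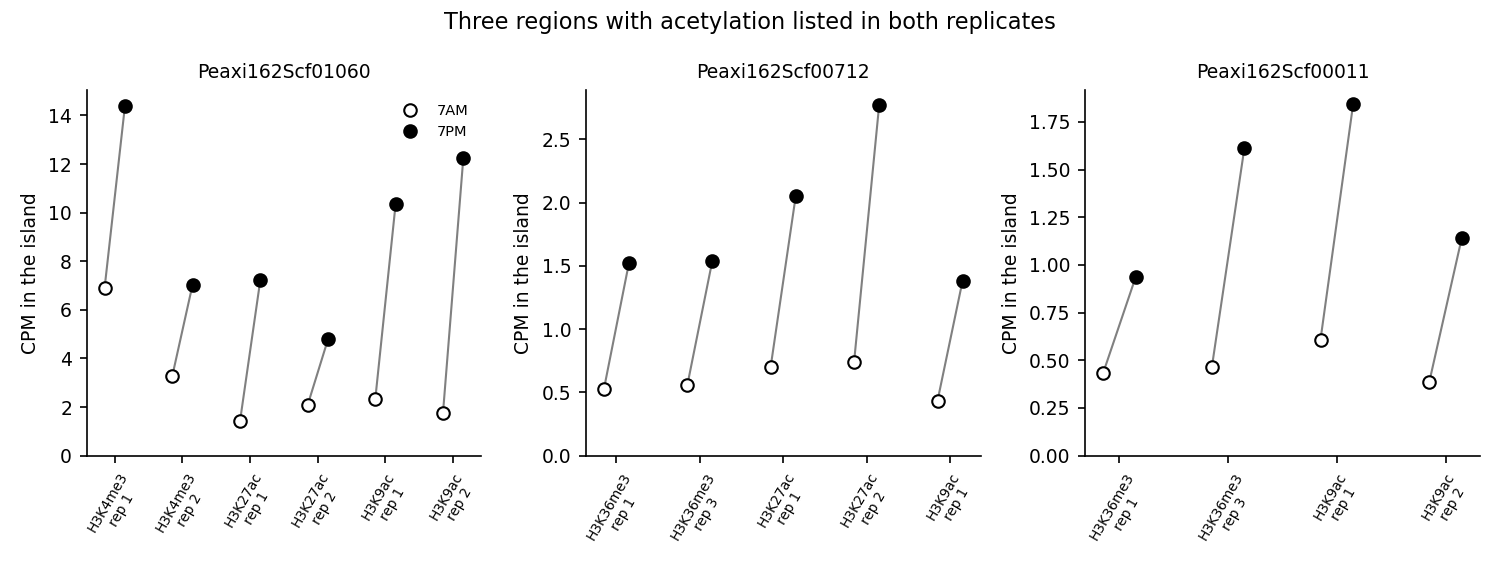
CPM in the island (vertical axis, its own scale in each panel) at 7AM (open) and 7PM (filled) for every mark and replicate listed at 3 regions, named by scaffold, with lines joining the 2 libraries of a pair. The 3 regions were chosen because an acetylation mark was listed there as rising in both replicates, which fixes the direction of most pairs. Values go from 1.41 to 7.21 CPM in H3K27ac replicate 1 on Peaxi162Scf01060 and from 0.704 to 2.05 CPM on Peaxi162Scf00712.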

How the data were processed

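Islands were analysed from 16 deposited lists. The submitters' processing notes name SICER 1.1 beside cutadapt and Bowtie2. Settings, use of the inputs and the genome build: not given in the sources used here. For every island the deposited columns hold read counts in one 7AM and one 7PM library, the same counts as CPM, their fold (a ratio after adding 1 read) and a p-value and FDR per direction. The deposited lists hold islands of at least 2-fold change with an FDR of at most 0.0097, in 200 bp steps. The 6 input samples were not used here.

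Library totals came from count over CPM. Positions are 1-based. Counts of a region were summed over its islands per library, and densities used island length. Regions of H3K27ac and H3K9ac listed in both replicates were fitted with edgeR 4.0.16 (R 4.3.3), robust quasi-likelihood, with the replicate as a block and library sizes set to the library totals, and called at 0.05 after adjustment. DESeq2 1.42.0, TMM, no block, a filter of 50 reads, an FDR of 1e-05, a fold of 3, 50% overlap and single replicates were alternatives. Merging and the edgeR fit were tested on simulated data. The simulated spread between replicates was well below that fitted for H3K9ac, so the simulation does not cover the H3K9ac fit. Named regions are, per set, the 5 with the largest fold in the weaker pair, 5 with most reads, 3 longest, 2 with the smallest fold, 2 with least overlap, the 2 nearest misses, and those meeting both replicates of another mark; regions named otherwise are said to be. Members and lists were chosen with earlier results of these data known. No genome was used, so no gene or sequence is given.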

Additional observations from a re-analysis of the deposited data

How the results depend on the processing

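Asking for 50% overlap of both islands left 101 H3K4me3 regions in place of 186 (105 of 146 for H3K36me3, within 1.5 times), an FDR of 1e-05 left 118 and 79, a fold of 3 left 1 and 0, and 50 reads at 7PM left 49 and 31. Single replicates gave 3277 to 9669 rising islands for H3K4me3 and 4021 to 5880 for H3K36me3. Median lengths were 1000 and 800 bp for single islands, 2000 and 1600 bp with 50 reads, and 800 to 800 bp (H3K4me3) and 1000 to 1000 bp (H3K36me3) in one replicate. Median densities were 0.715 and 0.852 CPM per kb of merged region, 0.574 and 0.710 at 7AM, 1.45 and 1.74 at 7PM, and 0.852 to 1.15 and 1.05 to 1.34 in one replicate.

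Median log2 folds were 2.49 and 2.48 with TMM, 2.4996 and 2.49 with median-of-ratios scaling, 1.28 and 1.23 with no read added, 1.15 and 1.096 with 50 reads, and 1.17 to 1.18 and 1.15 to 1.19 in one replicate. Regions meeting another mark numbered 1 and 2 when both its replicates had to be listed, 12 to 14 and 20 to 28 with one of its replicates, and 22 for H3K36me3 with an FDR of 1e-05. H3K36me3 regions with rising acetylation then numbered 10, and 11 without replicate 1 of the acetylation marks, against 27 (H3K4me3: 3 and 4, against 5, and 2 without replicate 2); these 4 alternatives were chosen after seeing the data.

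H3K27ac kept 2 of 2 calls with TMM, DESeq2 and without the replicate block (edgeR adjusted p 0.0232 and 0.0247). With TMM its fitted log2 fold went from 1.90 to 3.31 on Peaxi162Scf01060 and from 1.69 to 3.09 on Peaxi162Scf00712. Over the whole H3K27ac fit, regions called lower went from 3638 to 66 with TMM. A rise kept under that scale is thus no separate check. H3K9ac had 0 of 3 calls, also without the replicate block (edgeR adjusted p 0.156 on Peaxi162Scf01060), but 1 with TMM, 1 with DESeq2 and 1 with the 50-read filter (edgeR adjusted p 0.00411), each on Peaxi162Scf01060. Its log2 fold on Peaxi162Scf43236 was −1.16 without replicate 1 and 2.76 without replicate 2. Same-numbered acetylation libraries deviated together (correlations 0.497 and 0.492), but the labels do not say that a number marks a shared batch. The cause of these shifts was not tested. Depth limits the regions: 3 reads are 0.0587 CPM in the deepest and 0.446 CPM in the shallowest library.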
